A study of Mus musculus with 14 samples.

Results

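The genes described here are those of fatty acid oxidation and its regulators, read in HL-1 cells after siRNA against Airn. Members were named by their known roles, from uptake and activation through the carnitine shuttle and beta-oxidation to uncoupling and control by nuclear receptors. The rule itself uses no measured value, but members and the further gene lists were chosen with earlier results of these data known. Counts of them set beside shares of all genes are thus not free of that choice. Of 35 named symbols, 33 have a row among the 20193 genes of the deposited table. Cpt1b, the muscle isoform of the outer carnitine palmitoyltransferase, and Acadvl, the very long-chain acyl-CoA dehydrogenase, were not analysed here. HL-1 is an established mouse line of atrial heart muscle cells, and all cells grew in Claycomb medium with serum, glutamine, norepinephrine and antibiotics. Airn is an imprinted long non-coding RNA transcribed antisense to Igf2r. The 14 arrays fall into 3 groups, each given siRNA at a final 10 nM with the lipid reagent RNAiMax. siScramble, the control siRNA, has 6 arrays, siAirn-001.1 has 4 and siAirn-001.2 has 4. The arrays carry a replicate number and the words biological replicate in their labels. Nothing in the sources used here tells whether they stem from separate cultures or days, or the time between transfection and harvest, so the p-values speak for the spread between arrays alone. Nor do the labels explain how the siRNA named siAirn-001.1 differs from the one named siAirn-001.2, and each is taken here as a reagent of its own.

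Long-chain fatty acids enter heart muscle cells with the help of membrane transporters, are tied to coenzyme A, and cross the inner mitochondrial membrane as carnitine esters. Inside, the acyl-CoA dehydrogenases, hydratases, hydroxyacyl-CoA dehydrogenases and thiolases shorten them step by step, and the electrons pass through the electron transfer flavoproteins to the respiratory chain. In the heart this is a main source of ATP, and the nuclear receptors PPARα, PPARδ and ERRα with their PGC-1 coactivators control many of its genes.

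Values are log2 expression as deposited, an array signal per gene, so levels are compared between arrays and never between genes. The targeted transcript was read first. As a percentage of the siScramble mean, Airn stood at 86.8 to 112.7 in the siScramble arrays. Arrays 1 to 4 of siAirn-001.1 stood at 93.5, 89.2, 48.4 and 48.3, and those of siAirn-001.2 at 96.2, 80.5, 41.4 and 45.5. Arrays 1 and 2 of siAirn-001.1 and array 1 of siAirn-001.2 thus lay inside the siScramble range, and results are given without these 3 arrays wherever that changes a call. The mean Airn change over both reagents was -0.64 ± 0.19 log2 (SE; limma adjusted p = 0.0754; exact two-sided permutation p = 0.00666). Array medians over all genes spanned 7.45 to 7.55, and pairs of arrays correlated at 0.988 to 0.998. Of the cell type markers, the 9 measured on the atrial cardiomyocyte list include general heart muscle genes. Their array means were 10.91 to 11.16 in siScramble, 11.21 to 11.38 in siAirn-001.1 and 10.91 to 11.10 in siAirn-001.2. The adipocyte and macrophage lists stayed at 6.11 to 6.36 and 5.97 to 6.24 in every array. The 8 fibroblast markers varied more, with array means of 6.67 to 7.48, and of 6.80 to 7.48 within siScramble. The 6 endothelial markers had array means of 6.84 to 7.08, and the 5 smooth muscle markers of 10.49 to 10.75. In cultured cells read in bulk, fewer cells of a kind and less RNA per cell cannot be told apart.

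In the comparison of both reagents with siScramble, 6 of the 33 members rose and 0 fell, where 2.15% of all genes rose and 1.97% fell (limma, adjusted p under 0.05 over all genes). The 6 were Cpt2, Crat, Pdk4, Ucp2, Ppara and Pex11a, with log2 changes of 0.22 to 0.62. Over all 33 members the median change was 0.13 and 29 lay above 0, against a median of -0.00 and 48.1% above 0 over all genes. At an unadjusted p under 0.05 there were 15 members, where 15.8% of all genes were (3186 genes). The same share of all genes was 17.9% for siAirn-001.1, 11.3% for siAirn-001.2 and 13.4% between the reagents. With each array centred on its own median, 460 of all genes rose and 267 fell, against 435 and 398 as deposited, and 7 members rose. siAirn-001.1 alone had 6 members higher and 0 lower (Cpt2, Crat, Pdk4, Pdk2, Ucp2 and Ppara), where 3.43% of all genes rose and 2.53% fell. siAirn-001.2 alone had 2 higher and 0 lower (Ucp2 and Pex11a), where 0.48% of all genes rose and 0.47% fell. The 6 siScramble arrays serve as control for each reagent, so the changes of the reagents are not independent. Between the reagents 1 member differed, Acads, lower in siAirn-001.2, where 0.674% of all genes were lower and 0.332% higher. Acads was called for neither reagent against siScramble, and no member called for one reagent alone differed past the threshold between the reagents in this fit.

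**Figure D1:**
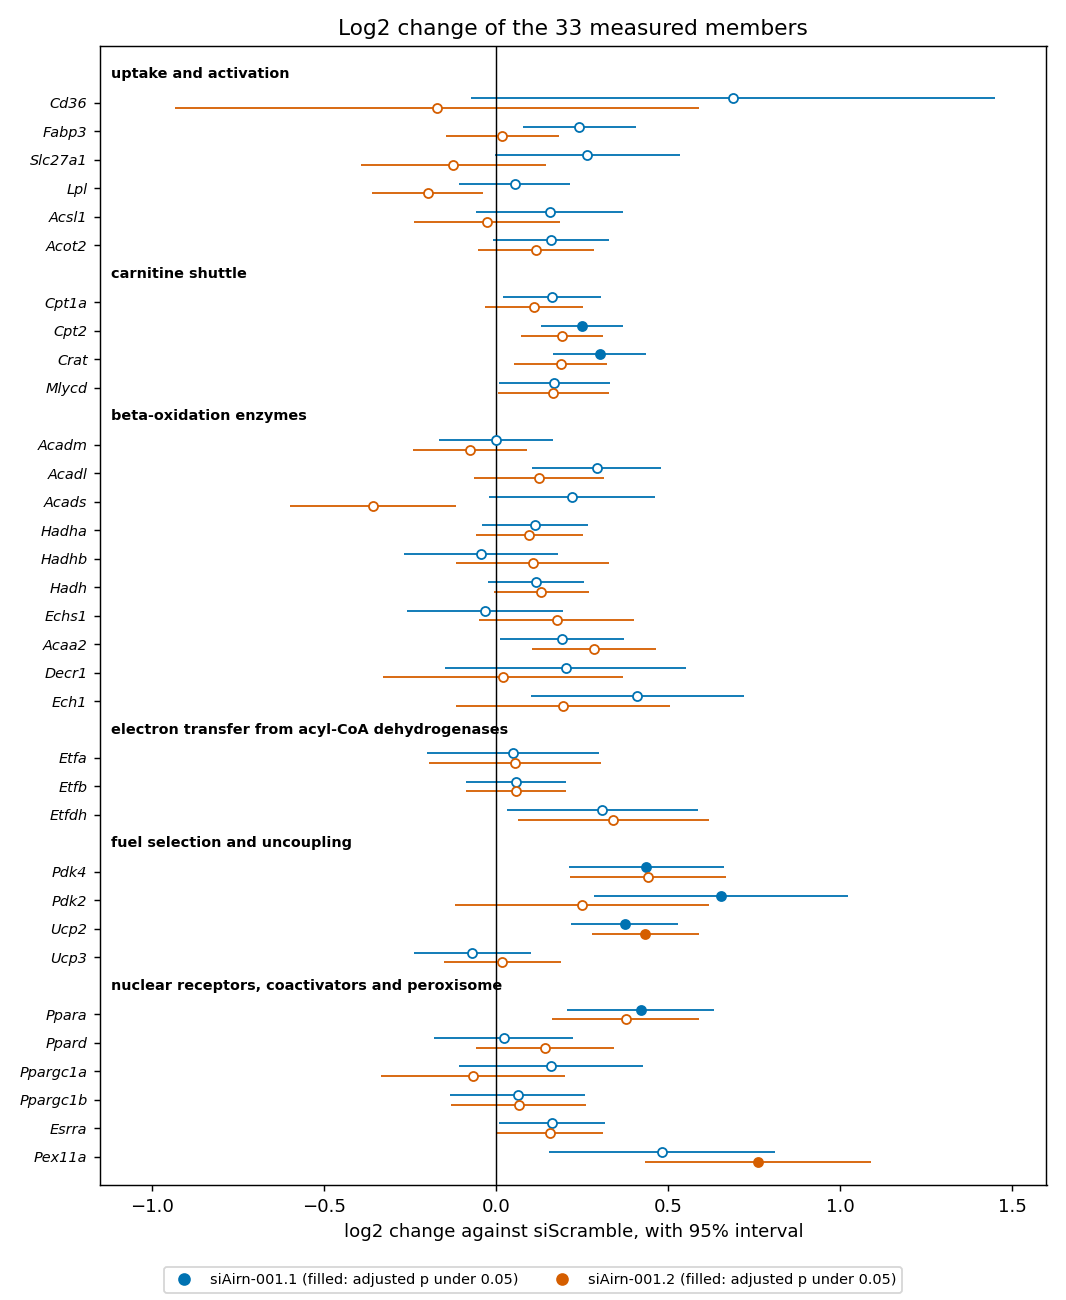
Log2 change of each of the 33 measured members against siScramble, for siAirn-001.1 and siAirn-001.2, ordered by role, with lines for the 95% interval and filled points for an adjusted p under 0.05. Most points lie to the right of 0, at a median of 0.17 for siAirn-001.1 and 0.12 for siAirn-001.2, and the filled points fall in the carnitine shuttle, fuel selection and nuclear receptor and peroxisome roles.

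Taking each reagent by itself, the 4 siAirn-001.1 arrays lay above all siScramble arrays for 8 members (4.68% of all genes) and below them for 0 (3.3%). The 4 siAirn-001.2 arrays lay above them for 5 (1.73%) and below them for 0 (2.01%). The siAirn-001.2 arrays lay above all siAirn-001.1 arrays for 0 members (2.23% of all genes) and below them for 3, Fabp3, Lpl and Acads (3.3%). Array by array, the members' median lay above that of every siScramble array in all 8 siAirn arrays. The median difference of the 33 members from their siScramble means was 0.29, 0.22, 0.12 and 0.19 in arrays 1 to 4 of siAirn-001.1 and 0.13, 0.16, 0.07 and 0.10 in those of siAirn-001.2. In the siScramble arrays it lay between -0.07 and 0.06, so the lowest siAirn array, siAirn-001.2 array 3, was barely above the highest siScramble array. Over all genes the same median lay between -0.04 and 0.04 in every array. The 4 fuel selection members had the highest medians in arrays 1 and 2 of both reagents, 0.59 and 0.56 for siAirn-001.1 and 0.45 and 0.47 for siAirn-001.2, against 0.24, 0.24, 0.19 and 0.20 in arrays 3 and 4 of the same reagents.

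**Figure D2:**
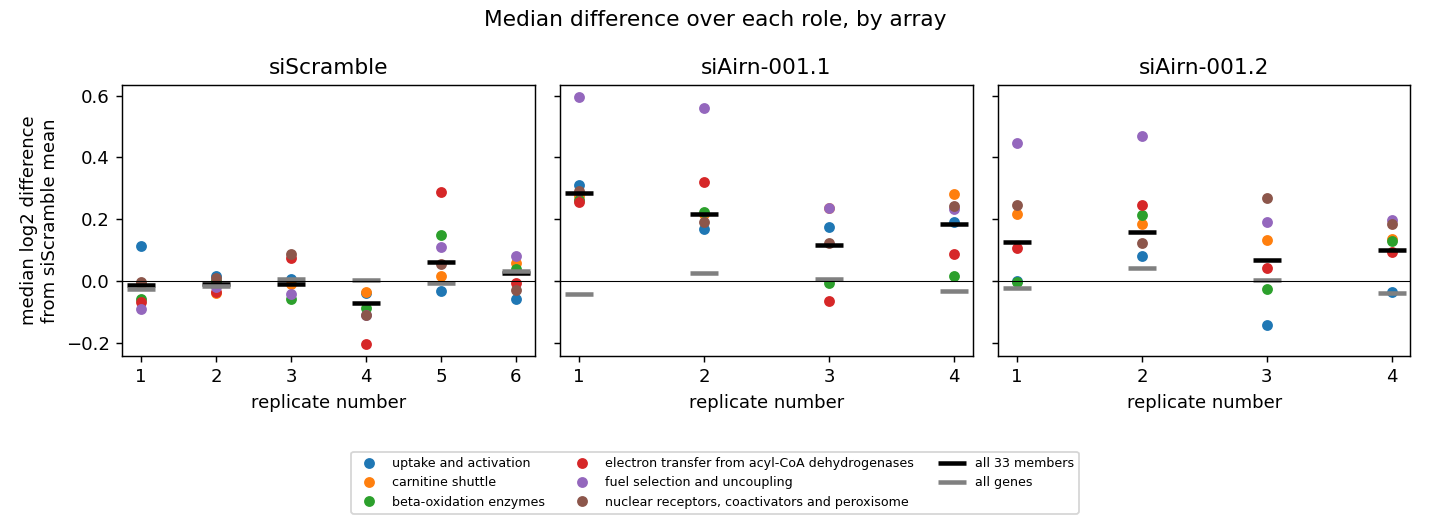
Median log2 difference from the siScramble mean over the members of each role (points), over all 33 members (black bars) and over all genes (grey bars), by array. The black bars lie at 0.07 to 0.29 in the siAirn arrays and at -0.07 to 0.06 in siScramble, while the grey bars stay between -0.04 and 0.04.

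Start-site windows are shown for 5 of the 6 members that rose, with Cpt1a, the outer isoform partner that did not pass the test, beside its inner partner Cpt2. Each runs from 250 bases before to 50 bases after the RefSeq gene start in assembly GRCm38.p6, 5′ to 3′ on the gene's strand. Of the 33 members, 28 matched a window, and Crat is named only. Capitals mark a nuclear receptor core site (AGGTCA), a GC box (GGGCGG) or a CCAAT box (CCAAT) on either strand. The windows are Cpt2 at chr4:107923540-107923839 (minus strand), Ucp2 at chr7:100493108-100493407 (plus), Pdk4 at chr6:5496229-5496528 (minus), Ppara at chr15:85735526-85735825 (plus), Pex11a at chr7:79743082-79743381 (minus) and Cpt1a at chr19:3323051-3323350 (plus).
Cpt2: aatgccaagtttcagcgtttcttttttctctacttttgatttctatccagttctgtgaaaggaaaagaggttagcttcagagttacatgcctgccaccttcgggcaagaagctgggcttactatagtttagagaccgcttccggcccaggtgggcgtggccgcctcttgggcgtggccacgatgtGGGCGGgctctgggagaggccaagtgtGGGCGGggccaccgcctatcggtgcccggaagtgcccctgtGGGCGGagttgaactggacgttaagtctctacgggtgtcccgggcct
Ucp2: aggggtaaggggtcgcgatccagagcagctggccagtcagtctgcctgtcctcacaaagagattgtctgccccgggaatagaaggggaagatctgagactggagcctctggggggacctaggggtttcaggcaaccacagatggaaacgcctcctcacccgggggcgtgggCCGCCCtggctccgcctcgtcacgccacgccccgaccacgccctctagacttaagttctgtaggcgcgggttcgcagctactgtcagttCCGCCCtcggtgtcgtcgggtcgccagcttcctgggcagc
Pdk4: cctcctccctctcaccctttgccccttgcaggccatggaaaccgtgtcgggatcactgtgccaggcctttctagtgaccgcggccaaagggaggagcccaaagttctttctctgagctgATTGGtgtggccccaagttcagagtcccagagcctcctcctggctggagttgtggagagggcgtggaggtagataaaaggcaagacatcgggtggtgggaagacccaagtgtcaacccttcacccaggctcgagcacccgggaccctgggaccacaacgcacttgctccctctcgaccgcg
Ppara: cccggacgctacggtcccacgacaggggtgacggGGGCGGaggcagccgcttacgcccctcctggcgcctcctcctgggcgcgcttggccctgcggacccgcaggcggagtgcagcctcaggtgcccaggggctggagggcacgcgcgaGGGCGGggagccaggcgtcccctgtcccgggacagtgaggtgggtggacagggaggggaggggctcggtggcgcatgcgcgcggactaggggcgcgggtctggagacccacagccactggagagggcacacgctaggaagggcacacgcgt
Pex11a: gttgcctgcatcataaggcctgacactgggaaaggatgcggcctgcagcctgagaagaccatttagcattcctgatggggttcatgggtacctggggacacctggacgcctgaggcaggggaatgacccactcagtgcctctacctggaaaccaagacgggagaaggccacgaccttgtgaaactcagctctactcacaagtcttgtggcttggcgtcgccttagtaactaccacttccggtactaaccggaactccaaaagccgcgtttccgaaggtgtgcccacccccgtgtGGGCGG
Cpt1a: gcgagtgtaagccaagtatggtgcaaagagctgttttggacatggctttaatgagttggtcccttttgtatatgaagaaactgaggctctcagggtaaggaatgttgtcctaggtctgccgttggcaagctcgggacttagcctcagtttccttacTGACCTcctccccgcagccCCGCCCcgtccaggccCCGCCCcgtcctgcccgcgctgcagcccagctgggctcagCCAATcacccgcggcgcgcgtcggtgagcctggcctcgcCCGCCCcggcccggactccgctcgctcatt
The Cpt2 window holds 3 GC boxes, those of Ucp2 and Ppara 2 each and that of Pex11a 1, while the Pdk4 window holds 1 CCAAT box and no GC box. Of these 6 windows, that of Cpt1a alone holds the core site, together with 3 GC boxes and 1 CCAAT box. Over the 28 member windows, 19 hold a GC box, against 35.7% of all 32851 RefSeq windows. CCAAT occurs in 13 of them against 37.4%, and the core site in 5 (Cd36, Cpt1a, Acadm, Echs1 and Ucp3) against 16.3%. None of the 28 holds the extended form TCAAGGTCA (0.423% of all windows) or the repeat AGGTCANAGGTCA (0.0396%), both of which contain the core site. These are letter matches in 300 bases only.

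Uptake and activation had 6 members, and none passed the test in any of the 4 contrasts in the model of 3 group means. Their median change was 0.10 over both reagents, 0.20 for siAirn-001.1 and -0.07 for siAirn-001.2. At an unadjusted p under 0.05 there were 0, 1 and 1 of them in these contrasts, and 4 between the reagents, to be read against the shares of all genes given above. Cd36, the scavenger receptor that brings in long-chain fatty acids, varied most between arrays of one group: siScramble ran from 5.86 to 7.67 around a median of 7.49, with arrays 5 and 6 the lowest. Its siAirn-001.1 values were 7.38, 7.10, 8.11 and 8.48 and its siAirn-001.2 values 6.56, 6.41, 7.25 and 7.42, so the groups overlapped. The change was 0.69 for siAirn-001.1 (95% interval -0.07 to 1.45; adjusted p = 0.344) and -0.17 for siAirn-001.2 (adjusted p = 0.977). Cd36 was 0.86 lower in siAirn-001.2 than in siAirn-001.1, a signed change of -0.86 that did not pass the test in the fit of all arrays (adjusted p = 0.354). Same-numbered arrays of the reagents deviated together, and a fit of the 8 siAirn arrays alone with the replicate number as a block, chosen after seeing the data, put this difference past the threshold (SE 0.08; adjusted p = 0.00893). In each of the 4 numbers the siAirn-001.2 array read lower. A block that joins siScramble 5 and 6 with siAirn 1 and 2, also chosen after seeing the data, put Cd36 past the threshold at 0.88 for siAirn-001.1 (adjusted p = 0.000349) and at 0.45 over both reagents (adjusted p = 0.0147).

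Fabp3, the heart fatty acid binding protein, and Slc27a1, a fatty acid transport protein with acyl-CoA synthetase activity, lay above every siScramble array in all siAirn-001.1 arrays. Fabp3 read 12.74, 12.70, 12.61 and 12.61 there, against a siScramble highest value of 12.54 (change 0.24; adjusted p = 0.0808). Its siAirn-001.1 change passed the threshold with replicate numbers as blocks (0.29; adjusted p = 0.0234), with array weights (0.25; adjusted p = 0.0458) and with arrays centred on their median (0.26; adjusted p = 0.0473). Slc27a1 read 9.33, 9.28, 9.12 and 9.15, against a siScramble highest value of 9.10 (change 0.27; adjusted p = 0.283). Neither stood apart in siAirn-001.2, where the changes were 0.02 and -0.12. Lpl, the lipoprotein lipase that frees fatty acids from circulating triglycerides, was at -0.20 in siAirn-001.2 (adjusted p = 0.284) and at 0.05 in siAirn-001.1. Acsl1, the main acyl-CoA synthetase of heart, and Acot2, a mitochondrial acyl-CoA thioesterase, were at 0.07 and 0.14 over both reagents (adjusted p = 0.866 and 0.326).

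The carnitine shuttle, which carries acyl groups across the inner mitochondrial membrane, had 2 of its 4 measured members higher over both reagents, with all 4 above 0 and a median change of 0.19. Cpt2, the inner-membrane enzyme that turns acylcarnitine back into acyl-CoA, read 10.21 (lowest), 10.33 (median) and 10.35 (highest) in siScramble. It read 10.58, 10.52, 10.53 and 10.57 in siAirn-001.1 and 10.43, 10.59, 10.47 and 10.48 in siAirn-001.2. All 8 siAirn arrays therefore lay above all 6 siScramble arrays, which was so for 3 members (Cpt2, Ucp2 and Ppara) and for 0.891% of all genes; no member lay below in all 8, as 0.738% of genes did. The change over both reagents was 0.22 ± 0.05 (SE), or 1.17-fold (adjusted p = 0.0152). It was 0.25 for siAirn-001.1 (adjusted p = 0.0148) and 0.19 for siAirn-001.2 (adjusted p = 0.131). Leaving out siScramble array 4 put the adjusted p of the joint comparison at 0.0513, and leaving out the 3 arrays with Airn in the siScramble range put that for siAirn-001.1 at 0.0656.

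Crat, carnitine acetyltransferase, which buffers the mitochondrial acetyl-CoA pool, ran from 10.76 to 10.96 in siScramble with a median of 10.83. Its values were 11.11, 11.09, 11.13 and 11.23 in siAirn-001.1 and 11.15, 11.06, 10.93 and 10.97 in siAirn-001.2. The siAirn-001.1 arrays were all above siScramble, while siAirn-001.2 array 3 fell below the highest siScramble array. The change was 0.25 ± 0.05 over both reagents (1.19-fold; adjusted p = 0.0162), 0.30 for siAirn-001.1 (adjusted p = 0.00978) and 0.19 for siAirn-001.2 (adjusted p = 0.201). Crat was the 1 member still called for siAirn-001.1 once the 3 arrays with Airn in the siScramble range were left out, at 0.34 (adjusted p = 0.0212).

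Cpt1a, the outer-membrane isoform that makes acylcarnitine and is inhibited by malonyl-CoA, ran from 11.53 to 11.71 in siScramble with a median of 11.64. It read 11.70, 11.66, 11.86 and 11.91 in siAirn-001.1 and 11.81, 11.64, 11.72 and 11.77 in siAirn-001.2. The groups overlapped, and the change of 0.14 ± 0.06 over both reagents did not pass the test (95% interval 0.02 to 0.26; adjusted p = 0.226). Mlycd, which breaks down malonyl-CoA, was at 0.17 over both reagents (adjusted p = 0.176).

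**Figure D3:**
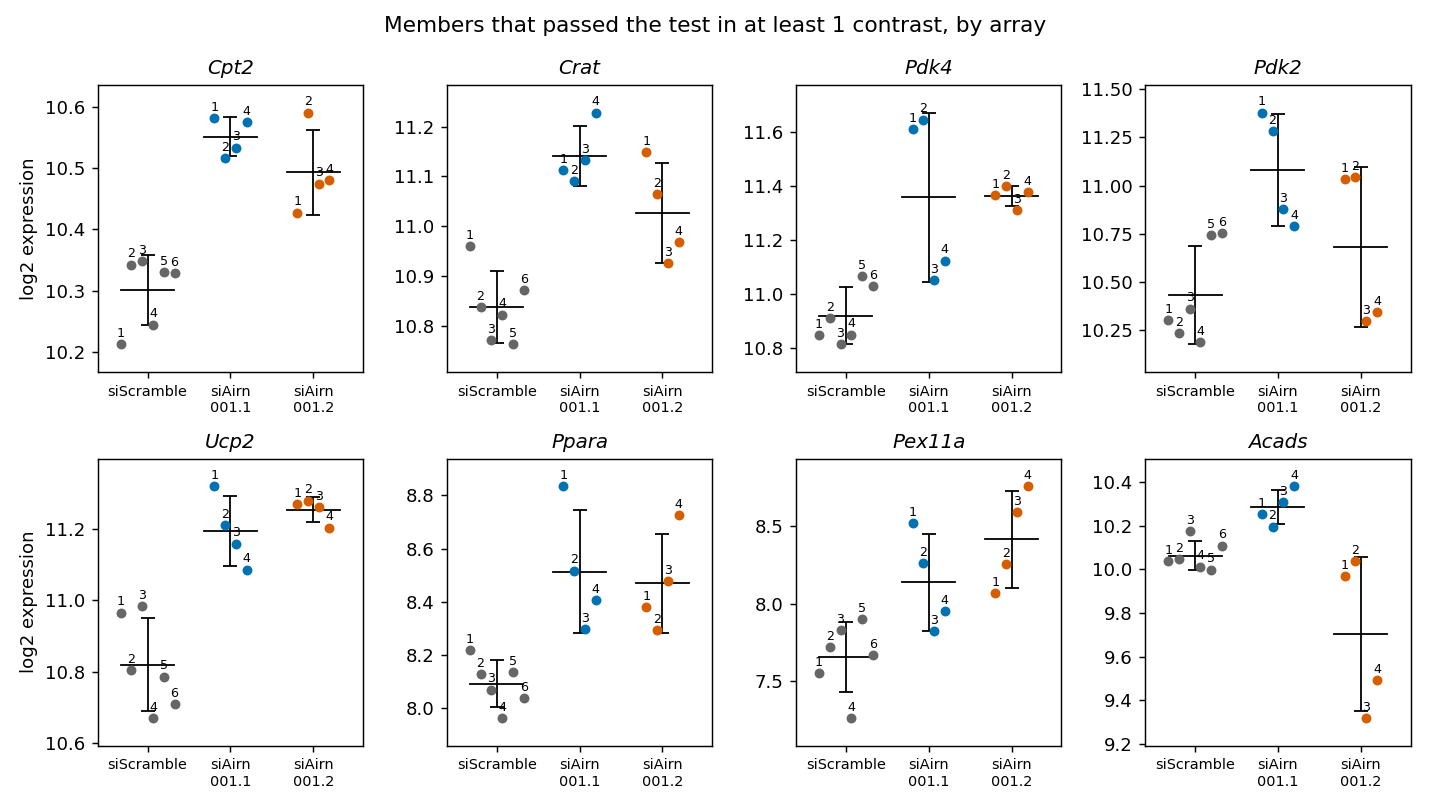
Log2 expression on each array of the 8 members that passed the test in at least 1 of the 4 contrasts, with the replicate number beside each point, and the group mean with 1 SD as bars; the vertical scale differs between panels and does not start at 0. Cpt2, Ucp2 and Ppara show all 8 siAirn arrays above siScramble, and Acads shows siAirn-001.2 arrays 3 and 4, at 9.32 and 9.49, apart from the other arrays.

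Of the 10 measured beta-oxidation enzymes, 0 passed the test over both reagents, for siAirn-001.1 or for siAirn-001.2, with 4, 3 and 2 at an unadjusted p under 0.05, where the shares of all genes were 15.8%, 17.9% and 11.3%. Their median change was 0.11 over both reagents and 8 of 10 lay above 0. Acads, the short-chain acyl-CoA dehydrogenase, was the exception between the reagents. It ran from 10.00 to 10.18 in siScramble with a median of 10.04. It read 10.25, 10.20, 10.31 and 10.38 in siAirn-001.1, all above siScramble, and 9.97, 10.04, 9.32 and 9.49 in siAirn-001.2, where arrays 3 and 4 were far below it and arrays 1 and 2 were near it. siAirn-001.2 was 0.58 ± 0.12 lower than siAirn-001.1 on the log2 scale, as a signed change -0.58 or 0.67-fold (adjusted p = 0.0357). Against siScramble the changes were 0.22 (adjusted p = 0.334) and -0.36 (adjusted p = 0.172). The difference between reagents lost the threshold in 9 of 14 fits that each left out 1 array, up to an adjusted p of 0.147, without siScramble 1, 2 or 4, any siAirn-001.1 array, or siAirn-001.2 array 3 or 4. A fit that took the replicate number as a block gave it an adjusted p of 0.0562, and the same block on the siAirn arrays alone 0.112.

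Acaa2, the mitochondrial thiolase of the last step, ran from 11.86 to 12.21 in siScramble with a median of 11.97, and arrays 5 and 6 were the highest. It read 12.30, 12.32, 12.09 and 12.11 in siAirn-001.1 and 12.30, 12.43, 12.20 and 12.25 in siAirn-001.2, overlapping siScramble arrays 5 and 6. Its change over both reagents, 0.24 ± 0.07, missed the threshold (adjusted p = 0.0706), and passed it at 0.33 with siScramble arrays 5 and 6 left out (adjusted p = 0.0125). Ech1, an auxiliary dienoyl-CoA isomerase, gave 0.30 (adjusted p = 0.213), with siScramble array 6 at 11.08, array 5 close to it and the other siScramble arrays at 10.47 to 10.58. The Ech1 change over both reagents passed the threshold at 0.48 without siScramble arrays 5 and 6 (adjusted p = 0.0237). It also passed at 0.48 with replicate numbers as blocks (adjusted p = 0.00999) and at 0.36 with array weights (adjusted p = 0.0457). Only siScramble has numbers 5 and 6, so the blocks take those arrays out, and both values of 0.48 are equal by construction. Acadl, the long-chain acyl-CoA dehydrogenase, gave 0.29 for siAirn-001.1 (adjusted p = 0.0639) and 0.12 for siAirn-001.2. Its siAirn-001.1 change passed with the same blocks (0.31; adjusted p = 0.0477), with array weights (0.35; adjusted p = 0.0175) and with arrays centred on their median (0.31; adjusted p = 0.0389). Acadm, the medium-chain enzyme, gave -0.04 over both reagents (95% interval -0.18 to 0.10). The trifunctional protein subunits Hadha and Hadhb gave 0.11 and 0.03, Hadh 0.12, the hydratase Echs1 0.07 and the dienoyl-CoA reductase Decr1 0.11, with adjusted p-values of 0.266 to 0.953.

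Electron transfer had 3 members, and none passed the test in any contrast in the model of 3 group means, with 1, 1, 1 and 0 at an unadjusted p under 0.05, against the same shares of all genes. Etfdh, the flavoprotein dehydrogenase that hands electrons to ubiquinone, ran from 10.16 to 10.71 in siScramble with a median of 10.38. It read 11.06, 10.98, 10.35 and 10.51 in siAirn-001.1 and 10.60, 10.90, 10.75 and 10.78 in siAirn-001.2. siAirn-001.1 arrays 3 and 4 and siAirn-001.2 array 1 lay inside the siScramble range, and the change over both reagents was 0.33 ± 0.11 (adjusted p = 0.117). For Etfdh, leaving out siScramble arrays 5 and 6 gave 0.43 (adjusted p = 0.0498). The electron transfer flavoprotein subunits Etfa and Etfb gave 0.05 and 0.06, with 95% intervals of -0.16 to 0.26 and -0.06 to 0.18.

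Fuel selection and uncoupling had the highest median of the roles, 0.42 over both reagents, and 2 of its 4 members rose. Pdk4, the pyruvate dehydrogenase kinase that holds back glucose oxidation and is a known target of PPARα, ran from 10.81 to 11.07 in siScramble with a median of 10.88. It read 11.61, 11.65, 11.05 and 11.12 in siAirn-001.1 and 11.36, 11.40, 11.31 and 11.38 in siAirn-001.2. All siAirn-001.2 arrays were above siScramble, while siAirn-001.1 array 3 was just below siScramble array 5. The change was 0.44 for both reagents together (± 0.09; 1.36-fold; adjusted p = 0.0114), 0.44 for siAirn-001.1 (adjusted p = 0.0224) and 0.44 for siAirn-001.2 (adjusted p = 0.0597). For siAirn-001.1 this rested on arrays 1 and 2, whose Airn lay in the siScramble range: without them and siAirn-001.2 array 1 it was 0.17 (adjusted p = 0.346). Its call for siAirn-001.1 was also lost without siScramble array 4, or without array 1 or 2 of siAirn-001.1 alone, at an adjusted p of at most 0.0856. Without the 3 arrays with Airn in the siScramble range the Pdk4 change was 0.44 for siAirn-001.2 (adjusted p = 0.0152) and 0.30 over both reagents (adjusted p = 0.0197).

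Pdk2, a widely expressed kinase of the same family, moved with the replicate number as well as with the group. Its siScramble arrays ran from 10.19 to 10.75 with a median of 10.33, and arrays 5 and 6 were the highest. siAirn-001.1 read 11.38, 11.28, 10.88 and 10.79, all above siScramble. siAirn-001.2 read 11.03, 11.04, 10.30 and 10.34, with arrays 1 and 2 above siScramble and arrays 3 and 4 inside its range. The change was 0.65 ± 0.17 for siAirn-001.1 (1.57-fold; adjusted p = 0.0353), 0.25 for siAirn-001.2 (adjusted p = 0.72) and 0.45 over both (adjusted p = 0.0978). The siAirn-001.1 call was lost in 6 of 14 fits that left out 1 array (siScramble 1, 2, 3 or 4, siAirn-001.1 array 1 or 2; adjusted p up to 0.113). Without the 3 arrays with Airn in the siScramble range, the siAirn-001.1 change was 0.41 (adjusted p = 0.3). A fit that took the replicate number as a block put the Pdk2 change over both reagents at 0.61 (adjusted p = 0.00678). Only siScramble has numbers 5 and 6, so this block takes those arrays out of the change. Leaving them out therefore gives the same 0.61 (adjusted p = 0.0309), and the fits are not separate checks.

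Ucp2, a mitochondrial carrier of the uncoupling protein family, was the member with the smallest adjusted p. It ran from 10.67 to 10.98 in siScramble with a median of 10.79. It read 11.32, 11.21, 11.16 and 11.09 in siAirn-001.1 and 11.27, 11.28, 11.26 and 11.20 in siAirn-001.2. Every siAirn array lay above every siScramble array, with less spread in siAirn-001.2 (SD 0.03) than in siScramble (SD 0.13). The change was 0.40 ± 0.06 over both reagents (1.32-fold; adjusted p = 0.00137), 0.37 for siAirn-001.1 (adjusted p = 0.00617) and 0.43 for siAirn-001.2 (adjusted p = 0.0124). All 3 calls held in each of the 14 fits that left out 1 array. Without the 3 arrays with Airn in the siScramble range, the change was 0.37 over both reagents (adjusted p = 0.0117) and 0.30 for siAirn-001.1, where it missed the threshold (adjusted p = 0.0771).

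Ucp3, the muscle isoform, lies in the lowest 25% of all genes by level, where RMA values respond little. It ran from 5.84 to 6.03 in siScramble with a median of 5.95, and read 5.91, 5.99, 6.02 and 5.61 in siAirn-001.1 and 5.87, 6.11, 5.95 and 5.96 in siAirn-001.2. The groups overlapped throughout, and the change over both reagents was -0.03 (95% interval -0.17 to 0.12; adjusted p = 0.952). It was the 1 member in that range.

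The nuclear receptors, coactivators and Pex11a had 2 of 6 members higher over both reagents, with all 6 above 0 and a median of 0.12. Ppara, the receptor PPARα that drives fatty acid oxidation genes, ran from 7.96 to 8.22 in siScramble with a median of 8.10. It read 8.83, 8.52, 8.30 and 8.41 in siAirn-001.1 and 8.38, 8.29, 8.48 and 8.73 in siAirn-001.2. Every siAirn array was above every siScramble array, with siAirn-001.1 array 1 and siAirn-001.2 array 4 the highest. The change was 0.40 ± 0.08 over both reagents (1.32-fold; adjusted p = 0.0138), 0.42 for siAirn-001.1 (adjusted p = 0.0199) and 0.38 for siAirn-001.2 (adjusted p = 0.0938). The siAirn-001.1 call was lost without siScramble array 4 or siAirn-001.1 array 1, at an adjusted p of up to 0.065, and without siAirn-001.1 arrays 1 and 2 the change was 0.26 (adjusted p = 0.202). Without siAirn-001.2 array 1 and the same arrays, Ppara was at 0.41 for siAirn-001.2 (adjusted p = 0.0499).

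Pex11a, a peroxisomal membrane protein that promotes peroxisome division and is induced by PPARα ligands in rodent liver, had the highest change of the 33 over both reagents. It ran from 7.26 to 7.90 in siScramble with a median of 7.69. It read 8.52, 8.26, 7.82 and 7.95 in siAirn-001.1 and 8.07, 8.26, 8.59 and 8.76 in siAirn-001.2. All siAirn-001.2 arrays were above siScramble and siAirn-001.1 array 3 was inside its range. The order of the arrays was opposite in the reagents, with arrays 1 and 2 above arrays 3 and 4 in siAirn-001.1 and below them in siAirn-001.2. The change was 0.62 ± 0.13 over both reagents (1.54-fold; adjusted p = 0.013), 0.76 ± 0.15 for siAirn-001.2 (1.70-fold; adjusted p = 0.0278) and 0.48 for siAirn-001.1 (adjusted p = 0.0807). The siAirn-001.2 call was lost without siScramble 1, 2 or 4 or siAirn-001.2 array 3 or 4, at an adjusted p of up to 0.116. Without the 3 arrays with Airn in the siScramble range, siAirn-001.2 was 0.65 above siAirn-001.1 (adjusted p = 0.0476), against 0.28 with all arrays (adjusted p = 0.542).

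The other receptors and the coactivators did not pass the test. Ppard, the receptor PPARδ, ran from 9.58 to 9.72 in siScramble with a median of 9.63, and read 9.47, 9.44, 9.92 and 9.84 in siAirn-001.1 and 9.71, 9.61, 9.91 and 9.91 in siAirn-001.2. Both reagents had arrays 3 and 4 above siScramble, siAirn-001.1 had arrays 1 and 2 below it, and the change was 0.08 (adjusted p = 0.777). Ppargc1a, the coactivator PGC-1α, ran from 11.16 to 11.75 in siScramble with a median of 11.38, and read 11.77, 11.60, 11.36 and 11.54 in siAirn-001.1 and 11.69, 11.46, 11.04 and 11.18 in siAirn-001.2. It overlapped in all groups (change 0.05; 95% interval -0.18 to 0.27; adjusted p = 0.941). Ppargc1b, its relative PGC-1β, ran from 7.79 to 7.98 in siScramble with a median of 7.89, and read 7.82, 7.77, 7.96 and 8.24 in siAirn-001.1 and 7.75, 7.90, 8.16 and 7.99 in siAirn-001.2 (change 0.06; 95% interval -0.10 to 0.23; adjusted p = 0.848). Esrra, the receptor ERRα, ran from 8.67 to 8.99 in siScramble with a median of 8.90, and read 9.09, 9.05, 8.94 and 9.03 in siAirn-001.1 and 9.08, 9.11, 8.94 and 8.97 in siAirn-001.2. The siAirn arrays of Esrra overlapped the upper part of the siScramble range, and the change of 0.16 ± 0.06 did not pass the test (95% interval 0.03 to 0.29; adjusted p = 0.18).

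**Figure D4:**
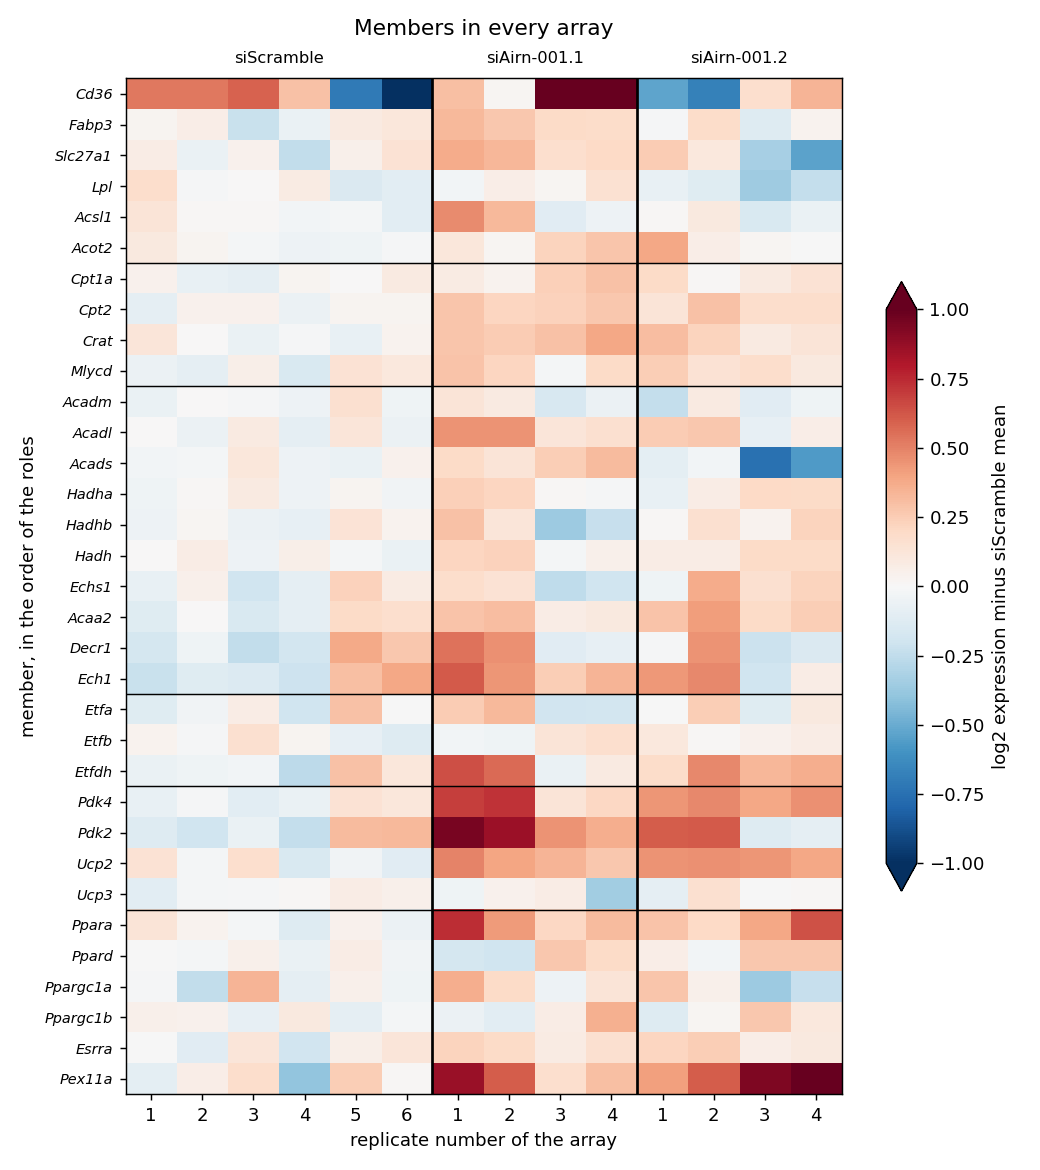
Log2 expression minus the siScramble mean for the 33 members (rows, by role) on the 14 arrays (columns); colours end at 1 and -1, and values of Cd36 and Pex11a past these are drawn in the end colour. Pdk2 and Ech1 are redder in siScramble 5 and 6 and in siAirn arrays 1 and 2, and Ucp2 is red in all 8 siAirn arrays.

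Members also differed by replicate number within a group. siScramble arrays 5 and 6 lay above arrays 1 to 4 for 11 members (18.0% of all genes did so) and below them for 3 (15.2%). The 11 were Fabp3, Mlycd, Hadhb, Echs1, Acaa2, Decr1, Ech1, Etfdh, Pdk4, Pdk2 and Ucp3. In siAirn-001.1, arrays 1 and 2 lay above arrays 3 and 4 for 22 members (23.8% of all genes) and below for 8 (22.9%). In siAirn-001.2 the counts were 14 (27.5%) and 7 (21.3%). For 7 members, Acsl1, Acadl, Acaa2, Decr1, Ech1, Pdk2 and Esrra, arrays 1 and 2 of both reagents lay above arrays 3 and 4 of both, where 6.8% of all genes did so. For Ppard and Ppargc1b they lay below (6.81% of all genes). The labels do not say what a replicate number stands for, and the arrays with the higher values of these 7 members include the 3 with Airn in the siScramble range. The part of either in the changes was not tested beyond the fits given.

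Without the 3 arrays with Airn in the siScramble range, the same 6 members were called over both reagents, while all genes called went from 833 to 816. For siAirn-001.1 the count fell from 6 to 1 (Crat), while that of all genes called went from 1203 to 1267. For siAirn-001.2 it was 4 (Pdk4, Ucp2, Ppara and Pex11a), while all genes called went from 192 to 252. Between the reagents it was 4 (Acads lower in siAirn-001.2, and Hadhb, Echs1 and Pex11a higher), while all genes called went from 203 to 999. Tnni3, a general heart muscle gene on the atrial cardiomyocyte list, rose by 0.33 over both reagents. Gja5, on the same list, was at 0.54 for siAirn-001.1 and -0.62 between the reagents. Of the 9 measured genes on that list, 1 passed the test over both reagents and 2 for siAirn-001.1. Of these 9, 9 were above 0 for siAirn-001.1 (median 0.20), 2 for siAirn-001.2 (median -0.08) and 6 over both reagents (median 0.04). All 8 fibroblast markers were below 0 over both reagents, from -0.86 to -0.03 with a median of -0.11, and none passed the test. Of 6 endothelial markers 1 passed the test, Kdr, at 0.39 over both reagents, 0.71 for siAirn-001.1 and -0.64 between the reagents. Of the 5 genes listed as smooth muscle markers 1 passed for siAirn-001.1, Des at 0.39, and 0 over both reagents. Des is not specific to smooth muscle. Kdr and Des were named after their values were seen. The part of these markers in the members' changes was not tested.

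In the authors' deposited table, which compares all siAirn arrays with siScramble, 5 of the 33 members and 292 of 20193 genes have an adjusted p under 0.05. These are Cpt2, Crat, Pdk4, Ucp2 and Ppara, and Pex11a is listed there with an adjusted p of 0.0548 and a log2 difference of 0.62.

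Other genes of the same pathways were read from further lists, 113 of 120 named genes having a row. Over both reagents 9 of the 113 rose and 1 fell, with a median change of 0.05 and 70 above 0. The share of all genes that rose over both reagents was 2.15%, and 1.97% fell. For siAirn-001.1 the counts were 10 and 1, where 3.43% of all genes rose and 2.53% fell. For siAirn-001.2 they were 3 and 0, where 0.48% rose and 0.47% fell. Between the reagents 0 passed in limma, with 13 of 113 at an unadjusted p under 0.05, where 13.4% of all genes were.

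Peroxisomal genes gave 3 of the 9, out of 26 measured. Pex19, the import receptor for peroxisomal membrane proteins, had a siScramble range of 10.32 to 10.58 and siAirn ranges of 10.75 to 10.85 and 10.74 to 11.02, with no overlap (change 0.43 ± 0.06; adjusted p = 0.000456). Pex19 rose with each reagent alone, by 0.39 for siAirn-001.1 (adjusted p = 0.00287) and by 0.48 for siAirn-001.2 (adjusted p = 0.00413). Phyh, which starts the breakdown of branched-chain phytanic acid, rose by 0.53 ± 0.12 over both reagents (adjusted p = 0.0183), with siScramble values up to 10.40 overlapping both siAirn groups.

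Lipid droplet and lipolysis genes gave 2 of 13. Pnpla2, the triglyceride lipase ATGL, ran from 10.11 to 10.30 in siScramble, from 10.63 to 10.71 in siAirn-001.1 and from 10.39 to 10.65 in siAirn-001.2. It rose by 0.38 ± 0.05 over both reagents (adjusted p = 0.000786), by 0.45 for siAirn-001.1 (adjusted p = 0.000667) and by 0.31 for siAirn-001.2 (adjusted p = 0.0311). Dgat2, which makes triglyceride, rose by 0.28 (adjusted p = 0.0216). Of the 16 other uptake and activation genes, Slc27a4, a fatty acid transport protein, rose by 0.27 (adjusted p = 0.0281) and its relative Slc27a3 fell by 0.37 (adjusted p = 0.0277).

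Of the 15 other fuel selection and uncoupling genes, Pdp2, a pyruvate dehydrogenase phosphatase and so the counterpart of the kinases, rose by 0.40 over both reagents (adjusted p = 0.0213) and by 0.61 for siAirn-001.1. Mpc2, a subunit of the mitochondrial pyruvate carrier listed under its older symbol Brp44, rose by 0.36 (adjusted p = 0.0123). Of 11 other mitochondrial oxidation genes, Hsd17b10, a short-chain hydroxyacyl-CoA dehydrogenase, rose by 0.26 (adjusted p = 0.0162). Cpt1c, the brain-type relative of Cpt1a, fell by 0.59 for siAirn-001.1 (adjusted p = 0.0178) and was at -0.40 over both reagents (adjusted p = 0.0623). Acacb, the acetyl-CoA carboxylase that makes malonyl-CoA at the mitochondrial surface, rose by 0.42 for siAirn-001.1 (adjusted p = 0.0348). Of the 25 other regulators and 7 other PPAR targets, 0 passed the test over both reagents in limma, with 3 and 0 at an unadjusted p under 0.05, and the median of the PPAR targets was 0.00.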

How the data were processed

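Biotin-labelled cRNA from total RNA of HL-1 cells was read on Affymetrix arrays, 1 sample each. The authors deposited the expression of each gene as log2 values, and the submitters' processing notes name RMA and limma without versions or roles. RMA matches the distributions of the arrays, so it would hide a shift of most genes, and it damps differences of dim probes. Per the file headers, the authors' table further holds a log2 difference with its p-value, raw and adjusted, between siAirn and siScramble. Array model, genome build and annotation: not given in the sources used here.

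No further normalisation or filter was applied to the deposited values. The main test used limma (version 3.58.1, under R 4.3.3) on 14 arrays and 20193 genes, with 1 mean for each of the 3 groups (11 residual and 5.31 prior degrees of freedom, two-sided, Benjamini-Hochberg over all genes, threshold 0.05). The number of arrays limits the precision: the median SE was 0.0876 for 1 reagent and 0.0733 for both. Simulated data with known changes were used to test the script. Same-numbered arrays of the reagents deviated together (correlations 0.32 to 0.53). Arrays of unlike number were not compared between the reagents, so this does not show that the numbers pair them. Same-numbered arrays of siScramble and the reagents did not deviate together (-0.43 to 0.23). With siScramble arrays 5 and 6, siAirn-001.1 correlated at -0.07 to 0.54 (arrays 1 and 2) and -0.48 to 0.06 (arrays 3 and 4). For siAirn-001.2 these were 0.06 to 0.58 and -0.57 to -0.15. Alternatives were a replicate block, array weights, centring, a low-level filter, a trended prior, the rounded value table, fewer arrays and, chosen after seeing the data, the block on siAirn arrays alone and siScramble 5 and 6 joined with siAirn 1 and 2.

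Values on every array are given for members called in at least 1 contrast, for the next by adjusted p up to 10, and for Cpt1a, Ucp3 and the receptors and coactivators. Cd36, Fabp3, Slc27a1 and Ech1 were added after their values were seen. Of the other lists, up to 4 called genes each are named. Not every gene this selects is reported here. Members and lists were chosen with earlier results of these data known.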

Additional observations from a re-analysis of the deposited data

Results flagged for a closer look

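Acads differed between the reagents, with siAirn-001.2 at -0.58 log2 relative to siAirn-001.1 (limma adjusted p = 0.0357), lower in 4 of 4 arrays. The call was lost in 9 of 14 fits that left out 1 array, with replicate numbers as blocks (adjusted p = 0.0562) and with those blocks on the siAirn arrays alone (adjusted p = 0.112). Against the siScramble mean its group means lay on opposite sides, at -0.36 for siAirn-001.2 and 0.22 for siAirn-001.1, with every array of one reagent below that mean and every array of the other above it. Acadm, the medium-chain acyl-CoA dehydrogenase, read 12.15 in siScramble array 5, apart from the nearest other siScramble array at 11.99. It was the 1 such array among 99 groups of arrays examined, where chance gives about 1 in 20.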

How the results depend on the processing

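Over the named members, 41 comparisons of a value with an alternative gained the threshold, 35 lost it, and no called value changed sign. Of 1146 comparisons of an uncalled value, 41 changed sign. With centring, the median change of all genes between the reagents moved from 0.01 to -0.01. Members called numbered 6 over both reagents, 6 for siAirn-001.1, 2 for siAirn-001.2 and 1 between the reagents, in that order below. With the replicate block they were 10, 10, 4 and 0, and with array weights 13, 11 and 6. The fit with the replicate block called 1550, 1845 and 563 of all genes, against 833, 1203 and 192 without it. Its changes against siScramble equal those without siScramble arrays 5 and 6, because only siScramble has these numbers. Because same-numbered arrays of the reagents deviated together, the block was also fitted to the siAirn arrays alone. There the 1 member called between the reagents was Cd36. With array weights 1927, 1906, 969 and 509 of all genes were called. Joining siScramble 5 and 6 with siAirn 1 and 2 as a block, a split no label gives, gave 10, 10, 4 and 4 members and 1605, 2047, 624 and 861 of all genes. Without siScramble arrays 5 and 6, counts were 10 members over both reagents (1145 of all genes, against 833), 4 for siAirn-001.2 (413 of all genes) and 0 between the reagents (214 of all genes). Without the arrays with Airn in the siScramble range they were 1 for siAirn-001.1 (1267 of all genes), 4 for siAirn-001.2 (252 of all genes) and 4 between the reagents (999 of all genes, against 203). With only the groups compared in the fit, 548 of all genes were called over both reagents, and 25 between them with 0 members. Centring moved the split of all genes higher and lower from 693 and 510 to 794 and 358 for siAirn-001.1, and from 67 and 136 to 45 and 171 between the reagents. Leaving out 1 array gave 5 to 7, 3 to 8, 1 to 4 and 0 to 1 members, and 378 to 981, 770 to 1259, 46 to 254 and 20 to 571 of all genes. The cause of these shifts was not tested. No signal over background is given in the files, and Ucp3 lies in the lowest 25% of genes by level.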
